A study of Mus musculus with 16 samples.

Results

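Integrin alpha V (Itgav) and 6 integrin subunits known to pair with it or to share its ligands were followed in 16 RNA-sequencing libraries of mouse iWAT, the inguinal white adipose tissue under the skin. The members are Itgav, its beta partners Itgb1, Itgb3, Itgb5, Itgb6 and Itgb8, and Itga5, the other alpha chain that binds fibronectin through beta 1. They are 7 of the 54752 genes in the deposited count table, and all 7 passed the filter on low counts. The set was chosen by the measured CPM of Itgav, which fell into 2 separate ranges in these 16 libraries, so its values are given as a description with no test, and the question put to the data is whether its partners follow it.

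There were 4 libraries for each of 4 genotypes. SOD1G93A mice hold a high-copy transgene of mutant human SOD1, and serve as a model of amyotrophic lateral sclerosis. Lepob/+ mice are heterozygous for ob, a loss-of-function allele of leptin. Both changes are present in SOD1G93A-Lepob/+ mice and absent from WT mice. The genotypes came from a cross of SOD1G93A males with Lepob/+ females, and every mouse was labelled C57BL/6, female and 90 days of age. The study compared Lepob/+ with WT, SOD1G93A with WT and SOD1G93A-Lepob/+ with SOD1G93A, to ask what less leptin does to adipose tissue with and without the transgene. The study counts each library of a genotype as a separate animal, so the p-values measure the spread between these mice.

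Integrins are receptors made of 1 alpha and 1 beta chain that span the cell membrane and tie the extracellular matrix to the actin skeleton. Alpha V pairs with several beta chains, and the resulting receptors read the RGD motif of vitronectin, fibronectin and osteopontin, while those with beta 6 and beta 8 also release active TGF-beta from its latent complex. Beta 1 pairs with many alpha chains besides alpha V, so its RNA level is not a measure of alpha V receptors alone. In fat, integrins are known to hold adipocytes and their progenitors to the matrix.

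Promoters are printed here because they belong to the gene with 2 ranges of level, Itgav, and to the 3 members that lay low in nearly the same libraries, Itgb1, Itgb5 and Itga5. Each is the 250 bases before the gene's start in RefSeq on build GRCm38.p6, at chr2:83724147-83724396 (plus strand) for Itgav, chr8:128685404-128685653 (plus strand) for Itgb1, chr16:33829415-33829664 (plus strand) for Itgb5 and chr15:103366792-103367041 (minus strand) for Itga5. Capitals mark GGGCGG or its reverse complement CCGCCC, the GC box bound by Sp factors.
Itgav: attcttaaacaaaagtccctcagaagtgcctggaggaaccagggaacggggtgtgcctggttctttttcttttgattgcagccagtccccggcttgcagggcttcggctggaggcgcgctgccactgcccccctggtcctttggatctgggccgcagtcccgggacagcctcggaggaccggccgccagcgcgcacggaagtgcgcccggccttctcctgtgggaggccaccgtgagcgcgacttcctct
Itgb1: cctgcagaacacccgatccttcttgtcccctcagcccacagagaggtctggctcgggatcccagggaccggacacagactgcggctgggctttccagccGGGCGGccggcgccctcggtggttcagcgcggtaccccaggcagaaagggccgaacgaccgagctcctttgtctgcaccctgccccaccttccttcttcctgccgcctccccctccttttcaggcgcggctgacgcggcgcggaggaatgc
Itgb5: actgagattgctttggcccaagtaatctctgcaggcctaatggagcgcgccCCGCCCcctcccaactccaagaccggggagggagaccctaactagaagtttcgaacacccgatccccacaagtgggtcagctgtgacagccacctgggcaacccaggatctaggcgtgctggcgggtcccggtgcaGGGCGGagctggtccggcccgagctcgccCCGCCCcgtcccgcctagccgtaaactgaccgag
Itga5: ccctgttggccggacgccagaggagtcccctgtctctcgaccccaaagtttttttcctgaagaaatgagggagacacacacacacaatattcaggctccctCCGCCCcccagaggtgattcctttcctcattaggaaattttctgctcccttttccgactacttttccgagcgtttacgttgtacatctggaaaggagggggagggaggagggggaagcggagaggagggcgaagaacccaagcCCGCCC
A promoter in RefSeq was matched for 6 of the 7 members. GC boxes numbered 0 before Itgav, 1 before Itgb1, 3 before Itgb5, 2 before Itga5 and 0 before Itgb6 and Itgb8, and 32.7% of all 32851 promoters of this length held at least 1. Neither TATAAA (12.4% of all promoters, reverse complement TTTATA included) nor TGANTCA (6.75%) was found before any of the 6. The Itgav promoter held 18 CG pairs, as did that of Itgb5, and that of Itgb1 held 21, against a median of 6 over all promoters, of which 7120 held 18 or more. These matches are a description of the letters in the windows.

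On build GRCm38, Itgav (ENSMUSG00000027087) spans chr2:83724397-83806916 on the plus strand. An antisense transcript gene, Gm13684, overlaps one of its exons, and a pseudogene, Dnmt3l-ps1, lies inside its introns, and both had 0 counts in every library. Itgb1 spans chr8:128685654-128733200, Itgb3 chr11:104608000-104670476 and Itgb5 chr16:33829665-33949338, all on the plus strand. On the minus strand, Itgb6 spans chr2:60598292-60722643, Itgb8 chr12:119158022-119238802 and Itga5 chr15:103344286-103366763.

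The libraries held 36.8 to 61.9 M counts (M for mega), and the mature adipocyte markers, such as Adipoq and Plin1, summed to 11700 to 28100 CPM (counts for each M counts of the library, with TMM scaling), so fat cell RNA was plentiful in each. The sum of 8 lymphocyte markers, such as Cd3e and Cd3d, fell apart into 6 libraries at 693 to 1880 CPM (WT 1 and 2, Lepob/+ 3, SOD1G93A 1, 2 and 4) and 10 at 9.73 to 31.9 CPM, and none of the 8 was at 0 in any library. Skeletal muscle markers summed to 149000 CPM in Lepob/+ 4 and to 5.25 to 3670 CPM in the others, where Myh2, Myh4 and Ckm were at 0 in at least 1 library. The library labelled SOD1G93A-Lepob/+ 3 went against its female label, with 0 counts of Xist and 599 of the Y-linked Ddx3y, while Ddx3y had 0 counts in the other 15. Neither mutation can be checked from gene counts, since the ob allele is a point mutation and the transgene is human: Lep was at 181 to 687 CPM in Lepob/+ and 202 to 682 in WT, and mouse Sod1 at 299 to 446 CPM in SOD1G93A and 354 to 497 in WT.

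Itgav stood in 2 ranges. In the WT libraries 1 to 4 it was at 5.59, 35.2, 27.0 and 25.5 CPM. In Lepob/+ it was at 4.30, 4.74, 4.18 and 3.90 CPM, and in SOD1G93A at 5.12, 5.08, 3.09 and 7.53 CPM. SOD1G93A-Lepob/+ gave 34.7, 4.72, 3.11 and 4.49 CPM. There were 4 high libraries (WT 2, 3 and 4 and SOD1G93A-Lepob/+ 1), at 25.5 to 35.2 CPM from 963 to 1566 counts, and 12 low ones, at 3.09 to 7.53 CPM with a median of 4.61 from 117 to 326 counts. The lowest high library lay 3.38 times above the highest low one, while levels differed by at most 1.38 times among the high libraries and 2.44 times among the low ones.

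The ranges followed genotype only in part. WT 2, 3 and 4 were high and every Lepob/+ and SOD1G93A library was low, but WT 1 was low and SOD1G93A-Lepob/+ 1 was high. Lepob/+ and SOD1G93A overlapped each other. WT and Lepob/+ did not overlap, since WT 1 at 5.59 CPM lay above the highest Lepob/+ library at 4.74. This is a description only, and the share of all genes with no overlap between these genotypes is not given here. The mean of Itgav was 11.8 ± 15.3 CPM in SOD1G93A-Lepob/+, 23.3 ± 12.6 in WT, 5.20 ± 1.81 in SOD1G93A and 4.28 ± 0.352 in Lepob/+ (SD, n = 4 libraries). The fitted log2 fold change was -2.45 (SE 0.72) for Lepob/+ against WT, -2.16 for SOD1G93A against WT and -0.99 for SOD1G93A-Lepob/+ against WT. Without SOD1G93A-Lepob/+ 1 that last value was -2.504. For SOD1G93A-Lepob/+ against SOD1G93A the log2 fold change was 1.18 with all libraries and -0.34 without SOD1G93A-Lepob/+ 1, so a single library set its sign.

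The high libraries did not share the other features seen in these data. The lymphocyte marker sum was 693 CPM in WT 2 and at most 31.9 in the other 3 high libraries, and 5 of the 12 low libraries were among the 6 with most lymphocyte marker RNA. The adipocyte marker sum was 15500 to 27100 CPM in the high libraries, inside the 11700 to 28100 CPM of the low ones. In bulk tissue, fewer cells of a type and less RNA per cell cannot be told apart.

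**Figure D1:**
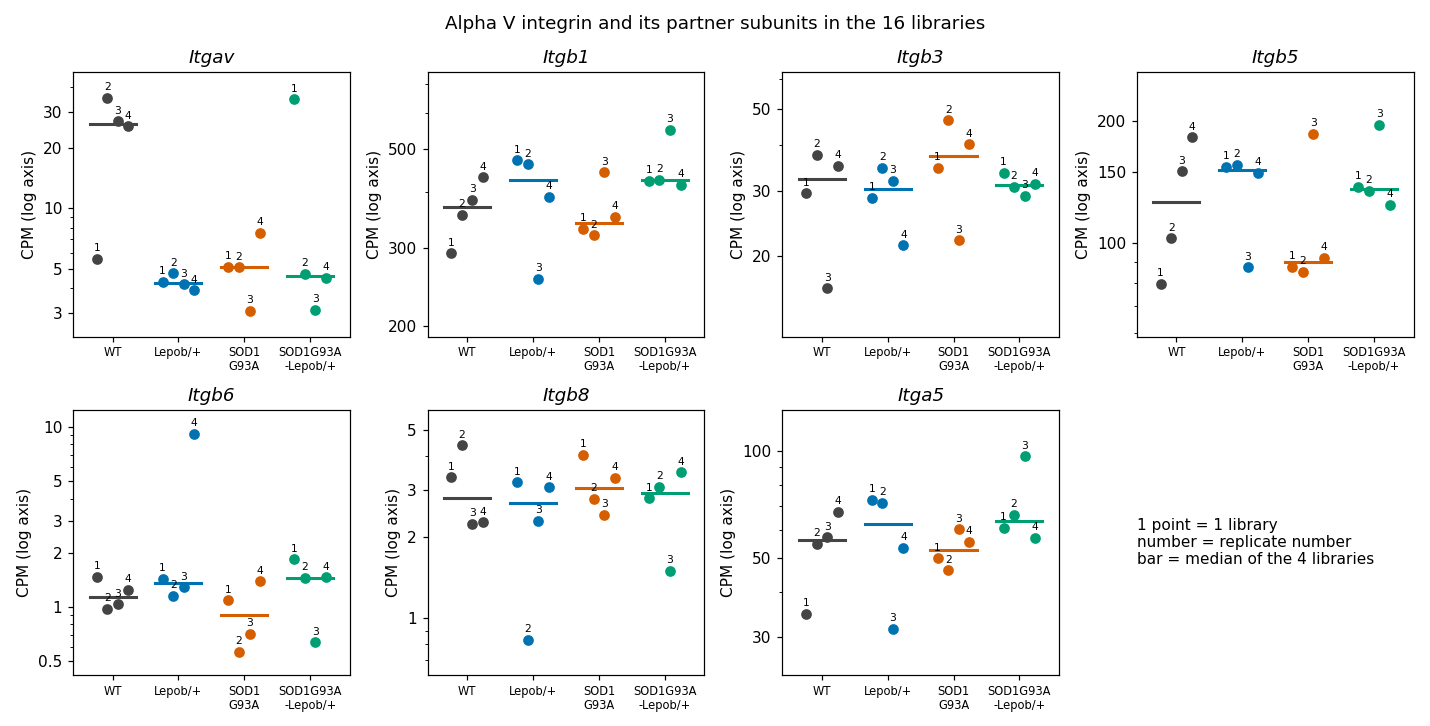
CPM of Itgav and its 6 partners in each library on log axes, by genotype, with the replicate number above each point and a bar at the median of the 4 libraries. Itgav splits at 7.53 to 25.5 CPM into 12 low and 4 high libraries, and no partner shows a comparable division.

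A wide empty gap was not rare in these libraries. With the log2 CPM values of each gene sorted and at least 3 libraries on each side, the widest gap of Itgav was 1.76, and 1067 of the 19736 genes tested (5.41%) had a gap as wide or wider, Itgav included. Of those 1067 genes, 471 divided the 6 libraries rich in lymphocyte markers from the other 10. None (0) of the other genes tested had the same libraries above its widest gap as Itgav, at any width. Genes with those libraries below the gap were not counted, while the 471 hold both directions.

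The partners had no such division. With at least 3 libraries on each side, their widest log2 gaps were 0.11 for Itgb1, 0.12 for Itga5, 0.20 for Itgb8, 0.27 for Itgb5, 0.38 for Itgb3 and 0.45 for Itgb6. This limit leaves out a single library that stands apart, such as Lepob/+ 4 with Itgb6 at 9.192 CPM. Over the 16 libraries, which share their depth scaling, Pearson's r between the log2 CPM of Itgav and a partner ran from -0.04 for Itgb1 to 0.19 for Itgb8, as a description of likeness. Itgb8 is the beta chain of the alpha V receptor on glia, dendritic cells and regulatory T cells.

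Compared per length (CPM per kb of exon), the order of levels was Itgb1, Itgb5, Itga5, Itgb3, Itgav, Itgb8 and Itgb6, with medians of 98.7, 38.3, 11.6, 5.37, 0.457, 0.265 and 0.178 CPM per kb. Each was higher than the next in 16 of 16 libraries, except Itgb8 over Itgb6, where 13 of 16 libraries held that order. Ranges over the 16 libraries did not overlap between Itgb1 and Itgb5 or between Itgb5 and Itga5, and overlapped for every later pair of neighbours. Itgb3 exceeded Itgav per length even in the high libraries, by at least 1.11 times.

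Itgb1, the beta chain of most matrix receptors and the partner of alpha 5 in the fibronectin receptor, was at 292, 356, 384 and 432 CPM in WT and 471, 461, 256 and 390 CPM in Lepob/+. SOD1G93A libraries gave 331, 320, 443 and 352 CPM, and SOD1G93A-Lepob/+ libraries 424, 427, 551 and 416 CPM. The highest library was SOD1G93A-Lepob/+ 3, the one that went against its female label. The other SOD1G93A-Lepob/+ libraries lay below the highest library of each other genotype, and every pair of genotypes overlapped.

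Itgb5, which pairs only with alpha V and binds vitronectin, was at 79.5, 103, 150 and 182 CPM in WT and 155, 156, 87.3 and 149 CPM in Lepob/+. It was at 87.6, 85.1, 186 and 92.1 CPM in SOD1G93A and 138, 135, 196 and 124 CPM in SOD1G93A-Lepob/+. Lepob/+ 3 stood low and SOD1G93A 3 high within their genotypes, and every pair of genotypes overlapped.

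Itgb3, the beta chain shared by the vitronectin receptor and the platelet fibrinogen receptor, was at 29.6, 37.5, 16.4 and 35.1 CPM in WT and 28.8, 34.6, 31.9 and 21.4 CPM in Lepob/+. The values in SOD1G93A were 34.6, 46.6, 22.1 and 40.1 CPM, and in SOD1G93A-Lepob/+ 33.6, 30.9, 29.1 and 31.4 CPM. The lowest library was WT 3, one of the 4 with high Itgav.

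Itga5, the alpha chain of the fibronectin receptor, was at 34.7, 54.8, 57.0 and 67.2 CPM in WT and 72.9, 71.3, 31.6 and 53.3 CPM in Lepob/+. It was at 49.8, 46.1, 60.1 and 55.3 CPM in SOD1G93A and 60.8, 65.9, 96.4 and 57.0 CPM in SOD1G93A-Lepob/+. The highest library was SOD1G93A-Lepob/+ 3, the one that went against its female label.

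Itgb6 and Itgb8, the chains that release latent TGF-beta, were the 2 lowest members. Itgb6, an epithelial chain, was at 0.635 to 1.84 CPM in SOD1G93A-Lepob/+, 0.565 to 1.39 in SOD1G93A and 0.979 to 1.47 in WT. In Lepob/+ it was at 1.43, 1.15, 1.29 and 9.19 CPM, the last in the library with 149000 CPM of muscle markers. Itgb8 was at 1.497 to 3.48 CPM in SOD1G93A-Lepob/+, 2.42 to 4.05 in SOD1G93A, 2.25 to 4.39 in WT and 0.831 to 3.20 in Lepob/+, and all genotypes overlapped.

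No partner passed the test in any comparison. Differences between genotypes were tested with edgeR's quasi-likelihood test on all 16 libraries, with Benjamini-Hochberg adjustment over the 19736 genes tested and a threshold of 0.05. At that threshold 0 of the 6 partners were called in each of the 6 comparisons, where 0% of all genes tested were called. With no gene called at all, these counts cannot tell a partner that follows Itgav from one that does not. At an unadjusted p under 0.05, 1 partner (Itgb6) was found in Lepob/+ against WT, where 4.37% of all genes tested lay under it, and 0 in the other comparisons. The background there was 2.56% for SOD1G93A against WT, 4.74% for SOD1G93A-Lepob/+ against WT, 16.5% for SOD1G93A-Lepob/+ against SOD1G93A, 1.25% for the mean of the 3 mutant genotypes against WT and 7.98% for the interaction of both mutations. DESeq2 on all 16 libraries gave 0 partners at either threshold, with no p for Itgb6.

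The contrast closest in shape to the Itgav levels is the mean of the 3 mutant genotypes against WT, in which Itgav had a log2 fold change of -1.87 (SE 0.51). In the same contrast 5 of the 6 partners had a positive value and 1 a negative one, with a median of 0.12 against 0.02 over all genes tested. The log2 fold change was 0.13 (95% interval -0.21 to 0.49) for Itgb1, 0.11 for Itgb3, 0.03 for Itgb5, 0.44 for Itgb6, -0.18 for Itgb8 and 0.16 for Itga5, and every adjusted p was 1. The 95% interval of Itgb5, which has no other alpha partner, was -0.51 to 0.57. The Itgav value is no benchmark for this interval, since the levels of Itgav chose the set.

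In Lepob/+ against WT, Itgb6 had the largest partner value, a log2 fold change of 1.46 (SE 0.61, adjusted p = 1 in edgeR's quasi-likelihood test). Without Lepob/+ 4 it was 0.11. The other 5 partners lay between -0.38 for Itgb8 and 0.11 for Itgb1, and Itgav at -2.45. In SOD1G93A against WT, 2 partners were positive and 4 negative, with a median of -0.02 against 0.02 over all genes tested.

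In SOD1G93A-Lepob/+ against SOD1G93A, Itgb1 (log2 fold change 0.33, SE 0.20), Itgb5 (0.39, SE 0.31), Itgb6 (0.52) and Itga5 (0.41, SE 0.26) were positive, and Itgb3 (-0.20) and Itgb8 (-0.21) negative, with no adjusted p under 0.40. Beside these values, the lymphocyte marker sum was 9.73 to 19.9 CPM in the 4 SOD1G93A-Lepob/+ libraries and 972 to 1880 CPM in 3 of the 4 SOD1G93A libraries, with 10.5 in SOD1G93A 3. Without SOD1G93A 3, Itgb5 had 0.76 (adjusted p = 0.11) and Itgb1 0.45 (adjusted p = 0.17), each with an unadjusted p under 0.05, which 28.0% of all genes tested had in that fit. Without SOD1G93A-Lepob/+ 3, against its female label, Itgb1 had 0.23, Itgb5 0.23 and Itga5 0.21. With the lymphocyte marker mean as a covariate, the log2 fold change of Itgb1 was -0.05, that of Itgb5 -0.23 and that of Itga5 -0.07, so these signs turned.

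The interaction of both mutations was positive for 4 partners and negative for 2, with 0 called, while the same term for Itgav was 3.62 with all libraries and 2.104 without SOD1G93A-Lepob/+ 1. All comparisons with WT share the 4 WT libraries, and so are not independent of each other.

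**Figure D2:**
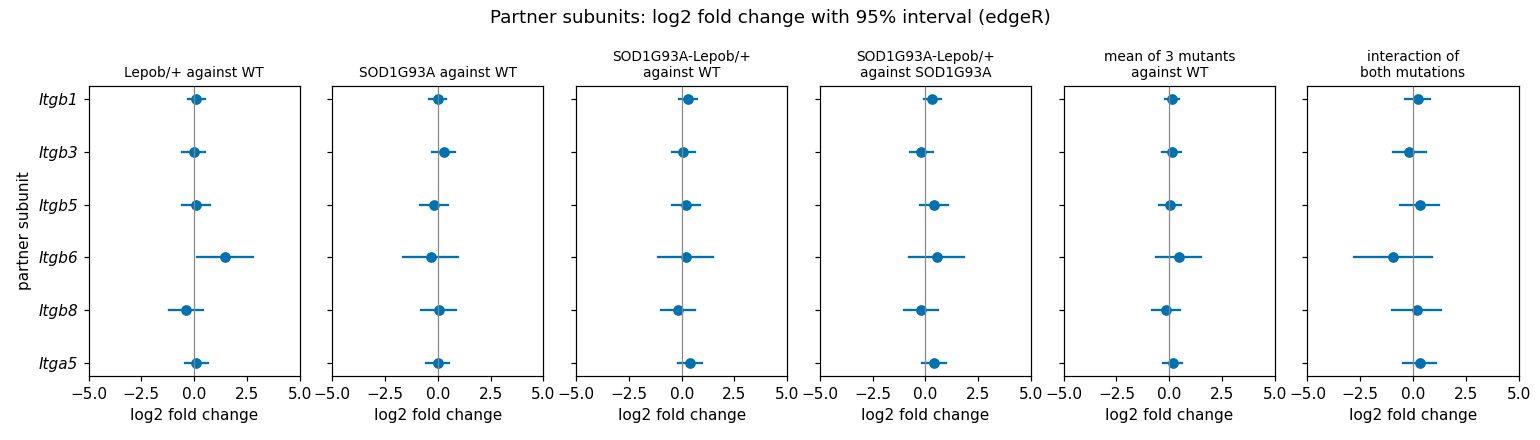
Log2 fold change (points) with its 95% interval (lines) for the 6 partners in 6 comparisons by edgeR, each panel on the same axis. Every interval spans 0 except that of Itgb6 in Lepob/+ against WT, at 0.14 to 2.78.

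Itgb1, Itgb5 and Itga5 lay low where lymphocyte marker RNA was high. The 6 libraries with most lymphocyte marker RNA were the 6 lowest of 16 for Itgb1 (256 to 356 CPM, against 384 to 551 in the other 10) and for Itgb5 (79.5 to 103 CPM, against 124 to 196). They held 5 of the 6 lowest values of Itga5, at 31.6 to 55.3 CPM against 53.3 to 96.4. For Itgb3 and Itgb8 they held 4 of the 6 highest values. Of all genes tested, 4.23% were lowest in these 6 libraries with no overlap, as Itgb1 and Itgb5 were. In the same libraries the adipocyte marker sum was 11700 to 16500 CPM, against 13100 to 28100 in the other 10, and the part of either cell type in the levels of these subunits was not tested.

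**Figure D3:**
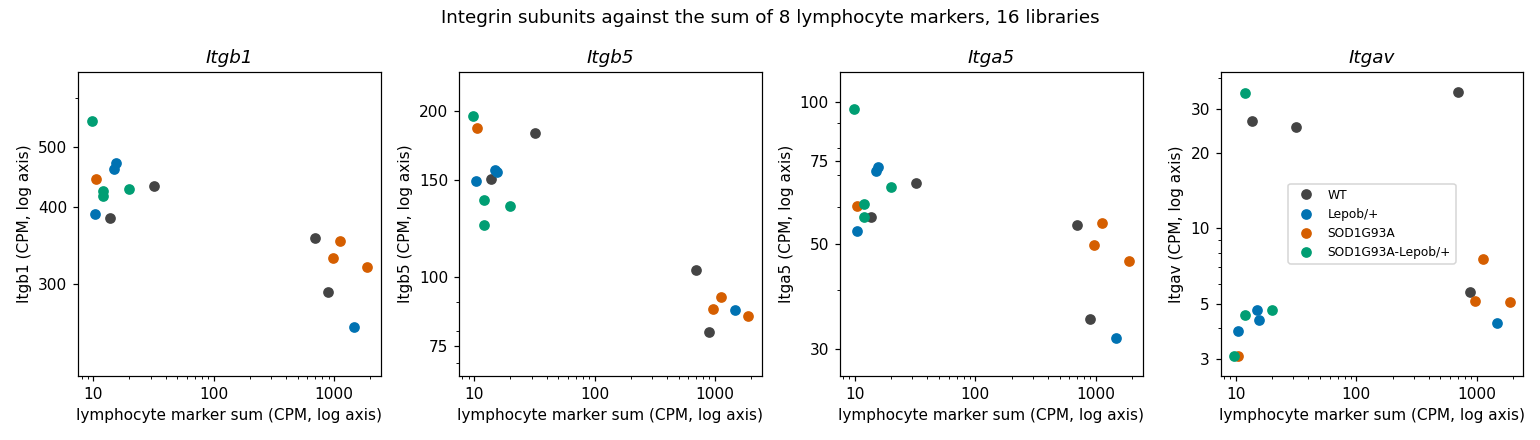
CPM of Itgb1, Itgb5, Itga5 and Itgav against the summed CPM of 8 lymphocyte markers in 16 libraries, log axes, coloured by genotype. The 6 libraries at 693 CPM or more on the right are the 6 lowest for Itgb1 and Itgb5, and Itgav takes both ranges of level on either side.

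Within the 12 low libraries, where Itgav varied from 3.09 to 7.53 CPM, the likeness of each partner to it on the log2 scale is given as a description with no test, since the values of Itgav chose the set. The libraries share their depth scaling. Itgb5 was lower where Itgav was higher, with Pearson's r = -0.74 and Spearman's rho = -0.68, and Itgb3 was higher, with r = 0.68 and rho = 0.73. The other 4 partners gave r from -0.50 for Itgb1 to 0.34 for Itgb8.

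Without the 2 libraries farthest from the median of Itgav, SOD1G93A 3 and 4, r was -0.74 for Itgb5 and 0.47 for Itgb3 over 10 libraries. Spearman's rho there was -0.62 for Itgb5 and 0.59 for Itgb3. Within the 7 low libraries with few lymphocyte markers, r was -0.85 for Itgb5 and 0.62 for Itgb3, and rho was -0.54 and 0.79. Among those 7, Itgb5 was highest in SOD1G93A 3 (186 CPM) and SOD1G93A-Lepob/+ 3 (196 CPM). These were also the lowest for Itgav, at 3.09 and 3.11 CPM, and the second of them went against its female label. The 5 low libraries with many lymphocyte markers, and the 4 high ones, are too few for a correlation.

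**Figure D4:**
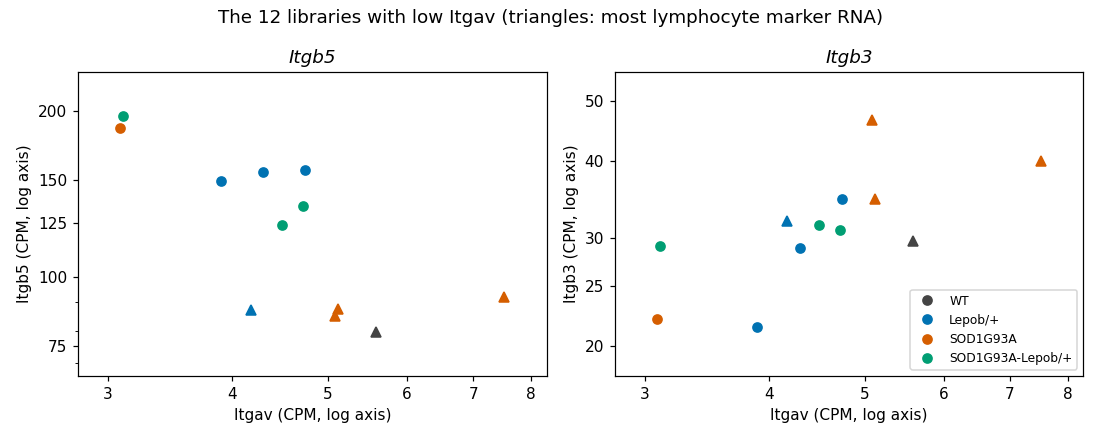
CPM of Itgb5 and of Itgb3 against Itgav in the 12 low libraries, log axes, coloured by genotype, with triangles for the 5 of them rich in lymphocyte markers. Itgb5 runs down and Itgb3 up as Itgav goes from 3.09 to 7.53 CPM, and the triangles lie low for Itgb5.

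The genes whose log2 CPM was most like that of Itgav over the 16 libraries were Gm17749 (r = 0.79), Gm20479 (0.73), 4930524J08Rik (0.68), Fbxo28 (0.68) and Fbxo33 (0.68), given without a test. Fbxo33, a substrate receptor of an SCF ubiquitin ligase, was at 14.5 to 16.4 CPM in the 4 high libraries and at 3.96 to 14.7 CPM in the 12 low ones, which overlap only through Lepob/+ 4. Fbxo28, of the same F-box family, was at 42.1 to 44.2 CPM against 33.0 to 42.4. The other 3 rest on few counts, with 6 to 20 for Gm17749, 0 to 33 for Gm20479 and 10 to 35 for 4930524J08Rik.

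The chromosomal neighbours of Itgav did not take its 2 ranges. Fam171b, 5.72 kb after it, was at 5.66 to 16.9 CPM in the 4 high libraries and 4.09 to 17.7 in the low ones, and Zc3h15, 59.8 kb before it, at 53.0 to 62.3 against 54.5 to 72.7 CPM. The next tested protein-coding genes overlapped between the ranges as well. These were Nup35 and Dusp19, 3070 and 3090 kb before Itgav, and Gm13698 and Gm13693, 149 and 155 kb after it. Gm13698 and Gm13693 were at only 0.181 to 0.339 CPM. All 6 had an adjusted p of 1 in the mean of the mutants against WT in edgeR's quasi-likelihood test.

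Of 20 other integrin subunits, 19 were tested and 0 were called in each comparison. In SOD1G93A-Lepob/+ against SOD1G93A, 4 were lower at an unadjusted p under 0.05 and 0 higher, where 16.5% of all genes tested lay under it. These were Itgae (log2 fold change -3.45), Itgal (-3.17), Itgb7 (-2.08) and Itga4 (-1.91), each with an adjusted p of 0.26, and all 4 are subunits of leukocyte integrins. The last 3 were chosen after their values were seen. Other leukocyte subunits did not all go the same way. The mean of Itgam was 61.1 ± 27.0 CPM in SOD1G93A-Lepob/+ and 52.5 ± 29.8 in SOD1G93A (SD, n = 4 libraries). Lower means were seen for Itgb2, at 68.4 against 107 CPM, and Itgax, at 8.62 against 16.3 CPM. Itgam, Itgb2 and Itgax were also chosen after their values were seen. Itgae, which with beta 7 binds E-cadherin, was at 13.4 to 18.8 CPM in the 6 libraries rich in lymphocyte markers and at 0.550 to 3.05 CPM in the other 10.

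Ligands gave 0 calls among 20 tested of 22 in each comparison. In SOD1G93A-Lepob/+ against SOD1G93A, 18 of the 20 were positive and 2 negative, with a median log2 fold change of 0.57 against 0.00 over all genes tested, and 3 had an unadjusted p under 0.05, where 16.5% of all genes tested lay under it. In the same comparison the fibroblast and progenitor markers were positive in 4 of 4 (median 0.60), the adipocyte markers in 6 of 6 (median 0.50) and the lymphocyte markers in 0 of 8 (median -6.38), and their part in the ligand values was not tested. Thbs1, the matrix protein thrombospondin 1 that binds alpha V beta 3, had the smallest p of the list in the mutants against WT, with a log2 fold change of 0.71 (SE 0.41). It was at 64.1, 78.9, 44.2 and 27.8 CPM in WT and 202, 150, 31.6 and 120 in Lepob/+. Thbs1 gave 65.5, 40.5, 33.6 and 56.6 CPM in SOD1G93A and 74.3, 150, 151 and 62.2 in SOD1G93A-Lepob/+, and its levels overlapped between genotypes. Edil3 (log2 fold change 1.10, at 0 to 0.673 CPM), Ccn1 (0.29) and Vwf (0.17) followed, all with an adjusted p of 1.

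The adhesion complex, which links the cytoplasmic tails to actin, had 26 of 26 genes tested and 0 called in each comparison. Its median in the mutants against WT was 0.07 against 0.02 over all genes tested. The kinase Src (0.30), the actin regulator Zyx (-0.29), the focal adhesion kinase gene Ptk2 (0.12) and the integrin activator Fermt2 (0.24) had the smallest p, each with an adjusted p of 1 in edgeR's quasi-likelihood test. Parva, whose product parvin binds integrin-linked kinase, was at 32.5 CPM in SOD1G93A 2 and 48.6 in SOD1G93A-Lepob/+ 2 and at 101 to 207 in the others, and was chosen after its values were seen.

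Genes of TGF-beta activation and its targets, downstream of the beta 6 and beta 8 receptors, had 19 of 19 tested and 0 called in each comparison. In the mutants against WT, 15 were positive and 4 negative, with a median of 0.09 against 0.02 over all genes tested. Ccn2, a matricellular target, had a log2 fold change of 0.61 (SE 0.34), Skil 1.10 (SE 0.81) and Lrrc32, a carrier of latent TGF-beta, 0.20 (SE 0.16), all with an adjusted p of 1.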

How the data were processed

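RNA of iWAT from 16 libraries was sequenced as paired reads of polyadenylated RNA. The authors trimmed reads with fastp, aligned them to mm10 (GRCm38) with HISAT2 2.1.0 and counted uniquely mapped reads with featureCounts 2.0.2. The deposited values are raw counts for 54752 Ensembl genes, of which 54723 were paired with a symbol from GENCODE. The library kit is named differently in the labels and the methods, and the strand setting and annotation release are not given in the sources used here.

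Counts were analysed with edgeR 4.0.16 in R 4.3.3: filterByExpr by genotype (min.count 10, min.total.count 15), TMM, and a robust quasi-likelihood F test in 1 fit of 16 libraries, with Benjamini-Hochberg adjustment over 19736 genes. The same steps were tested on simulated data. DESeq2 1.42.0 was an alternative, as were size factors, other filters, a replicate block, the compared genotypes only, a lymphocyte covariate and each library left out. Log2 CPM used a prior count of 1. The widest gap of a gene was taken with 3 or more libraries on each side. At 36.8 to 61.9 M counts per library, how counting error compares with the spread between libraries was not computed.

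The members, gene lists and markers were chosen with earlier results of these data known. The text names the 7 members, from each list the 4 genes whose p was lowest when the mean of the mutant genotypes was set against WT, the 5 genes most like Itgav and its 3 tested protein-coding neighbours on each side. A further gene that this rule would name was left out. The correlations planned with Itgav are given without their p-values, since Itgav chose the set. Of the listed genes, Itgb2l and 2 ligands (Ibsp and Fga) and the platelet marker Gp9 were too low to test. The other marker lists gave these sums over the libraries in CPM: epithelium summed to 297 to 1190, endothelium to 469 to 980, macrophages to 301 to 1360, megakaryocytes and platelets to 26.9 to 141, and fibroblasts and progenitors to 2890 to 12600.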

Additional observations from a re-analysis of the deposited data

Results flagged for a closer look

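In 4 of the 24 sets of 4 libraries (6 partners in 4 genotypes), 1 library stood far from the other 3 by Dixon's criterion, which chance alone meets in about 1 in 20 groups. Itgb1 was at 550.7 CPM in SOD1G93A-Lepob/+ 3, the library that went against its female label, with the nearest at 426.6 CPM. Itgb5 was at 87.32 CPM in Lepob/+ 3 (nearest 149.1), a library rich in lymphocyte markers among 3 that were not. It was at 185.9 CPM in SOD1G93A 3 (nearest 92.09), the only SOD1G93A library with few lymphocyte markers. Itgb6 was at 9.192 CPM in Lepob/+ 4, with the nearest at 1.428 CPM, and that library held 149000 CPM of skeletal muscle markers. Whether these features account for the levels was not tested.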

How the results depend on the processing

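The count of partners called was 0 in each comparison under every alternative run, each library left out included (lowest 0, highest 0). Of 840 partner values under alternatives, 783 kept their sign and side of the threshold and 57 changed sign, none of them past the threshold in either fit. With the lymphocyte marker mean as a covariate, 18 log2 fold changes changed sign, to Itgb1 -0.0633, Itgb3 0.16, Itgb5 -0.15 and Itga5 -0.11 for Lepob/+ against WT, Itgb1 0.10, Itgb5 0.000822, Itgb8 -0.0489 and Itga5 0.15 for SOD1G93A against WT, Itgb5 -0.23 and Itgb8 0.0968 for SOD1G93A-Lepob/+ against WT, Itgb1 -0.0529, Itgb3 0.24, Itgb5 -0.23, Itgb8 0.15 and Itga5 -0.0709 for SOD1G93A-Lepob/+ against SOD1G93A, Itgb5 -0.13 for the mean of the 3 mutant genotypes against WT, Itgb3 0.0827 and Itgb5 -0.0784 for the interaction of both mutations. In the fit of the compared genotypes only, Itgb8 turned to -0.00771 for SOD1G93A against WT.

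With 1 library left out, the values that changed sign ran over these ranges of log2 fold change. In Lepob/+ against WT, these were Itgb3 (-0.22 to 0.11), Itgb5 (-0.0967 to 0.28), Itga5 (-0.0722 to 0.29). In SOD1G93A against WT, these were Itgb1 (-0.15 to 0.0488), Itgb5 (-0.56 to 0.000911), Itgb8 (-0.12 to 0.25), Itga5 (-0.19 to 0.0900). In SOD1G93A-Lepob/+ against WT, these were Itgb3 (-0.12 to 0.21), Itgb6 (-0.000260 to 0.42), Itgb8 (-0.32 to 0.0470). In the mean of the 3 mutant genotypes against WT, these were Itgb3 (-0.0908 to 0.24), Itgb5 (-0.15 to 0.22), Itgb6 (-0.0193 to 0.55), Itgb8 (-0.31 to 0.0450), Itga5 (-0.0120 to 0.26). In the interaction of both mutations, these were Itgb3 (-0.33 to 0.0244), Itgb6 (-1.22 to 0.42), Itgb8 (-0.11 to 0.37).

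The replicate numbers did not pair the libraries: over 24 pairs with the same number the correlation of deviations ran from -0.694 to 0.52, was over 0.1 in 5 and under -0.1 in 8, and 4 of 16 libraries correlated best with their own number. With the replicate block 0 partners were called, and Itgb3 turned to 0.035 for Lepob/+ against WT.

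Without the 2 libraries farthest from the median of Itgav, r was 0.474 for Itgb3 and -0.737 for Itgb5, and r for Itgb6 turned from 0.071 to -0.106. The 0 genes called by edgeR among all tested compare with 1, 3, 44, 565, 0 and 51 by DESeq2 on all libraries, for Lepob/+, SOD1G93A and SOD1G93A-Lepob/+ against WT, SOD1G93A-Lepob/+ against SOD1G93A, the mean of the mutants against WT and the interaction; on the compared genotypes only, the first 4 were 5, 14, 353 and 1780. The causes were not tested. With 4 libraries a genotype, 1 of them against its label and lymphocyte marker RNA uneven between genotypes, small partner differences could not be resolved, and Itgb6 and Itgb8 rest on few counts.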
